A study of Mus musculus with 10 samples.

Results

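The TNF-family costimulation genes described here are 10 protein-coding genes of the mouse, namely 3 ligands (Cd40lg, Cd70, and Tnfsf10) and 7 receptors (Cd40, Tnfrsf4, Tnfrsf9, Tnfrsf18, Cd27, Tnfrsf1a, and Tnfrsf1b). They were chosen by name among the 25814 genes of the deposited tables, and all 10 were found in each of the 10 libraries. RNA had been sequenced from 5 groups of 2 libraries each. Keratinocytes alone were primary cells from adult mouse tails according to the design text, and the methods give C57/B6 mice of 8 to 12 weeks for the experiments in general. Co-cultured keratinocytes had been kept together with splenic CD8+ T cells, which were washed off before collection. Activated T cells were splenic T cells purified with CD8 microbeads and treated with αCD3/CD28 Abs for 1 d. T cells in medium had received the same activation and 1 further day in keratinocyte medium according to the labels, or in a 4:1 mix of SFM and X-vivo medium according to the methods of the study. Co-cultured T cells had received the same activation and 1 further day together with keratinocytes, so that all 3 T-cell groups shared the activation. The labels and the methods give 1 d of co-culture, whereas the design text of the series gives 1 h. Time and medium differed together whenever a T-cell group was compared with activated T cells. Libraries of T cells in medium and of co-cultured T cells carry no replicate number in their labels and were numbered 1 and 2 in order of deposition only. No source gives the animals behind a library, and p-values therefore measure the spread between libraries, which may be technical.

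TNF-family costimulation receptors sit on the surface of T cells and other immune cells, and are engaged by trimeric ligands on antigen-presenting or activated cells. OX40 (Tnfrsf4), CD137 (Tnfrsf9), and GITR (Tnfrsf18) are induced by T-cell receptor signals, whereas CD27 is present on resting T cells. Most of these receptors recruit TRAF adaptors and activate NF-κB, while TNFR1 (Tnfrsf1a), which is present on most cell types including keratinocytes, can also signal cell death.

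In the deposited tables, which use GRCm38, 4 of the 7 receptors lie on chromosome 4 and 2 on chromosome 6. Tnfrsf4 (chr4:156013843-156016612, + strand) and Tnfrsf18 (chr4:156026164-156028895, + strand) are separated by 9551 bases. Tnfrsf9 is at chr4:150914562-150946102 (+ strand) and Tnfrsf1b at chr4:145213463-145246870 (- strand). Cd27 (chr6:125232622-125237010, - strand) and Tnfrsf1a (chr6:125349362-125362484, + strand) are separated by 112351 bases. The other members are spread over chromosomes 2 (Cd40), 3 (Tnfsf10), 17 (Cd70), and X (Cd40lg). Tnfrsf9 overlaps Camta1 in part and Cd27 lies within Vamp1, both of the opposite strand, but in the GENCODE annotation they share 0 exon bases with them. The kit is not stated to keep strand, and reads of such pairs cannot be told apart within a shared region. In T cells, Camta1 reached 1.49 RPKM and Vamp1 1.00 RPKM at most.

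Promoter sequence is shown for the 3 members whose RNA differed in both comparisons with activated T cells, namely Tnfrsf9, which was lower, and Cd27 and Tnfrsf1a, which were higher. RefSeq promoters on GRCm38.p6 were at hand for 7 of the 10 members, with 8 starts in all, and the 250 bases before each start were searched on both strands. Searched were the AP-1 motif TGANTCA, the NFAT motif TGGAAA, the GAS motif TTCNNNGAA, the core of the ISRE, and the NF-κB consensus. Capitals mark these matches, and bases in annotated exons were left out of all lines but the second Tnfrsf9 line. The first Tnfrsf9 line is the window before the upstream start (chr4:150919905-150920154, + strand), which holds 1 NFAT match. The second is a stretch of 30 bases before the downstream start (chr4:150927947-150927976, + strand), in which 2 overlapping matches to the NF-κB consensus are in capitals. This stretch was not screened for exons, and 81 of the 250 bases before the downstream start lie in annotated Tnfrsf9 exons. Cd27 is shown at chr6:125237028-125237277 (- strand) and Tnfrsf1a at chr6:125349509-125349722 (+ strand).
Tnfrsf9, upstream start: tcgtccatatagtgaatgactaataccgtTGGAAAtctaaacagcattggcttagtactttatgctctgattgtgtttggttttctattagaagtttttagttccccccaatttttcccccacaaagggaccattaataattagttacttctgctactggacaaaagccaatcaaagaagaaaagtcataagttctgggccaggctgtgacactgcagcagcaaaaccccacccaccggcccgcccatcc
Tnfrsf9, downstream start: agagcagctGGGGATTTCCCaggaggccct
Cd27: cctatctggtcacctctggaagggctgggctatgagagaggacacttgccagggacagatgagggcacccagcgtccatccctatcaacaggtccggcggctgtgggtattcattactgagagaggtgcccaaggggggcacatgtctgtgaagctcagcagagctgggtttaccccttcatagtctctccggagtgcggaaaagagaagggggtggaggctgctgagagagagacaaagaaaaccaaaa
Tnfrsf1a: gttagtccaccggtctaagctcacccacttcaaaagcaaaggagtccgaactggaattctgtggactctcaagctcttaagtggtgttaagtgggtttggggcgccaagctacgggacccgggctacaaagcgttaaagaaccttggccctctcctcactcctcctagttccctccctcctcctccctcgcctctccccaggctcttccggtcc

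Among the 8 starts of members, the NF-κB consensus was found only before the downstream start of Tnfrsf9, and in 3.9% of the 32851 RefSeq promoters searched in the same way. The same Tnfrsf9 window held an AP-1 match 15 to 9 bases before the start, a motif found in 6.7% of all promoters. No searched motif was found in the Cd27 window. GAS matches were found before 4 of the 8 starts, and in 7.0% of all promoters. They lay 136 to 128 bases before the downstream start of Tnfrsf9, 99 to 91 before that of Tnfrsf18, 181 to 173 before that of Tnfrsf1b, and 244 to 236 before that of Tnfrsf1a, the last within an annotated exon that is not shown. Of the 250 bases before the start of Tnfrsf18, 158 lie in annotated exons as well. The ISRE core was found before Tnfrsf1b, 10 to 1 bases from its start, and in 3.0% of all promoters. NFAT matches were found in the windows of Tnfrsf4 and Tnfsf10 as well, and in 18.6% of all promoters. Of the window of Tnfrsf4, 166 bases lie in annotated exons of the gene Sdf4, and 49 bases of that of Tnfsf10 lie in its own annotated exons. These matches describe letters and not bound sites.

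In the 10 libraries, 12864931 to 18019609 reads were counted on exons. RPKM, exon reads scaled to the length of exons and to mapped reads, are used for levels, and 3 reads on 1 kb correspond to 0.158 to 0.212 RPKM, a floor that covers counting error only. The summed RPKM of 8 keratinocyte markers was 13580 to 18640 in keratinocyte libraries and 1.75 to 93.8 in T-cell libraries, the highest in co-cultured T cells. RNA of T cells was present in all keratinocyte libraries, those labelled as keratinocytes only included. The mean RPKM of Cd3d, Cd3e, and Cd3g was 22.4 and 83.4 in keratinocytes alone, 27.5 and 150.1 in co-cultured keratinocytes, and 119.7 to 357.6 in T cells. The mean of Cd8a and Cd8b1 was 0.112 to 1.58 RPKM in keratinocyte libraries and 125.6 to 548.1 RPKM in T cells, whereas Cd4 reached 11.4 to 84.5 RPKM in keratinocyte libraries and 16.8 to 102.3 RPKM in T cells. Replicate 2 of both keratinocyte groups thus stood apart from replicate 1 by its T-cell RNA, and the T cells selected for CD8 also held Cd4 RNA. Both ends of the Cd4 range in T cells were activated libraries, replicate 1 at 16.8 RPKM and replicate 2 at 102.3 RPKM. Their means of Cd8a and Cd8b1 were 226.8 and 125.6 RPKM. Cd4 was at 61.96 to 75.88 RPKM in the later T-cell groups. The activated libraries, with which both later groups were compared, thus differed in composition, and its part in those comparisons was not tested.

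Among the ligands, Cd40lg encodes the ligand of CD40. Its level was 1.05 and 3.99 RPKM in keratinocytes alone, 1.895 and 11.01 RPKM in co-cultured keratinocytes, 2.05 and 12.4 RPKM in activated T cells, 3.47 and 8.62 RPKM in T cells in medium, and 4.41 and 5.65 RPKM in co-cultured T cells. Replicate 2 was the higher library in all 5 groups, though for T cells in medium and co-cultured T cells this number is the order of deposition only. Activated T cells had the highest mean (7.22 RPKM ± 7.31, SD, n = 2) and keratinocytes alone the lowest (2.52 RPKM ± 2.08, SD, n = 2). In this order of means, neighbouring groups overlapped with the exception of the lowest pair.

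Cd70, which encodes the ligand of CD27, was hardly detected. It had 0 and 0 reads in keratinocytes alone, 2 and 7 in co-cultured keratinocytes, 6 and 15 in activated T cells, 0 and 0 in T cells in medium, and 4 and 0 in co-cultured T cells. With 1.24 RPKM at most, Cd70 passed the filter on low counts in no comparison and was not tested. Activated T cells were above T cells in medium, and co-cultured keratinocytes above keratinocytes alone, at reads too few for a fold.

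Tnfsf10 encodes TRAIL, a ligand that can trigger death of target cells. Its level was 0.25 and 1.43 RPKM in keratinocytes alone, 0.412 and 2.14 RPKM in co-cultured keratinocytes, 2.93 and 2.29 RPKM in activated T cells, 5.09 and 3.76 RPKM in T cells in medium, and 4.51 and 3.07 RPKM in co-cultured T cells. All 6 T-cell libraries were above all 4 keratinocyte libraries. Both later T-cell groups were above activated T cells, and they overlapped with each other.

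Among the receptors, Cd40, the receptor of Cd40lg on antigen-presenting cells, had the fewest reads. It had 0 and 0 reads in keratinocytes alone, 1 and 0 in co-cultured keratinocytes, 83 and 104 in activated T cells, 0 and 38 in T cells in medium, and 17 and 24 in co-cultured T cells. Activated T cells were highest, at 1.86 RPKM ± 0.493 (SD, n = 2). The summed RPKM of 7 B-cell markers was 31.0 and 33.1 in activated T cells, 45.5 to 93.5 in T cells in medium, and 17.0 to 27.6 in co-cultured T cells, with Ighm at 0 in all groups. The summed RPKM of 9 myeloid and dendritic markers was 23.7 to 96.4, 59.8 to 66.0, and 57.8 to 70.3 in the same order of groups. The part of B cells and of myeloid cells in the level of Cd40 was not tested.

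Tnfrsf4, Tnfrsf9, and Tnfrsf18 were at high levels in activated T cells. Tnfrsf4 was at 170.7 and 234.6 RPKM in activated T cells, 45.9 and 58.7 RPKM in T cells in medium, 48.5 and 75.2 RPKM in co-cultured T cells, 13.9 and 44.5 RPKM in keratinocytes alone, and 14.9 and 67.4 RPKM in co-cultured keratinocytes. Both activated libraries were above all 8 others, and the 4 remaining groups overlapped along their order. Tnfrsf9 was at 161.3 and 156.2 RPKM in activated T cells, 12.6 and 13.7 RPKM in T cells in medium, 7.776 and 10.99 RPKM in co-cultured T cells, 1.24 and 4.23 RPKM in keratinocytes alone, and 1.57 and 8.27 RPKM in co-cultured keratinocytes. The activated libraries were close to each other and above all other libraries, and both libraries of T cells in medium were above those of co-cultured T cells. Tnfrsf18 was at 149.8 and 196.3 RPKM in activated T cells, 54.5 and 101.2 RPKM in T cells in medium, 104.0 and 163.2 RPKM in co-cultured T cells, 8.49 and 24.1 RPKM in keratinocytes alone, and 10.5 and 47.9 RPKM in co-cultured keratinocytes. Unlike for its neighbour Tnfrsf4, activated and co-cultured T cells overlapped.

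Cd27 and Tnfrsf1a showed the opposite order among T cells. Cd27 was at 38.7 and 41.1 RPKM in activated T cells, 103.4 and 122.4 RPKM in T cells in medium, 122.6 and 99.6 RPKM in co-cultured T cells, 4.596 and 18.6 RPKM in keratinocytes alone, and 5.57 and 33.1 RPKM in co-cultured keratinocytes. Both later T-cell groups overlapped with each other and were above the activated libraries. Tnfrsf1a was at 5.45 and 6.17 RPKM in activated T cells, 14.7 and 13.5 RPKM in T cells in medium, 21.3 and 18.1 RPKM in co-cultured T cells, 48.5 and 60.8 RPKM in keratinocytes alone, and 67.9 and 57.7 RPKM in co-cultured keratinocytes. It was the only member with its highest level in keratinocytes, and apart from the overlap of both keratinocyte groups, all neighbouring groups were separate.

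Tnfrsf1b encodes TNFR2, the TNF receptor of lymphocytes and myeloid cells. It was at 20.7 and 46.4 RPKM in activated T cells, 36.1 and 36.2 RPKM in T cells in medium, 39.3 and 40.1 RPKM in co-cultured T cells, 4.59 and 15.6 RPKM in keratinocytes alone, and 5.57 and 27.7 RPKM in co-cultured keratinocytes. The activated libraries spanned all other T-cell libraries. Of the exon reads, at least 98.07% mapped uniquely for 8 members in every library, but 25.0% for Tnfrsf9 and 20.7% for Cd27 over all libraries. The log2 fold changes of both against activated T cells are therefore given on uniquely mapped reads as well.

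**Figure D1:**
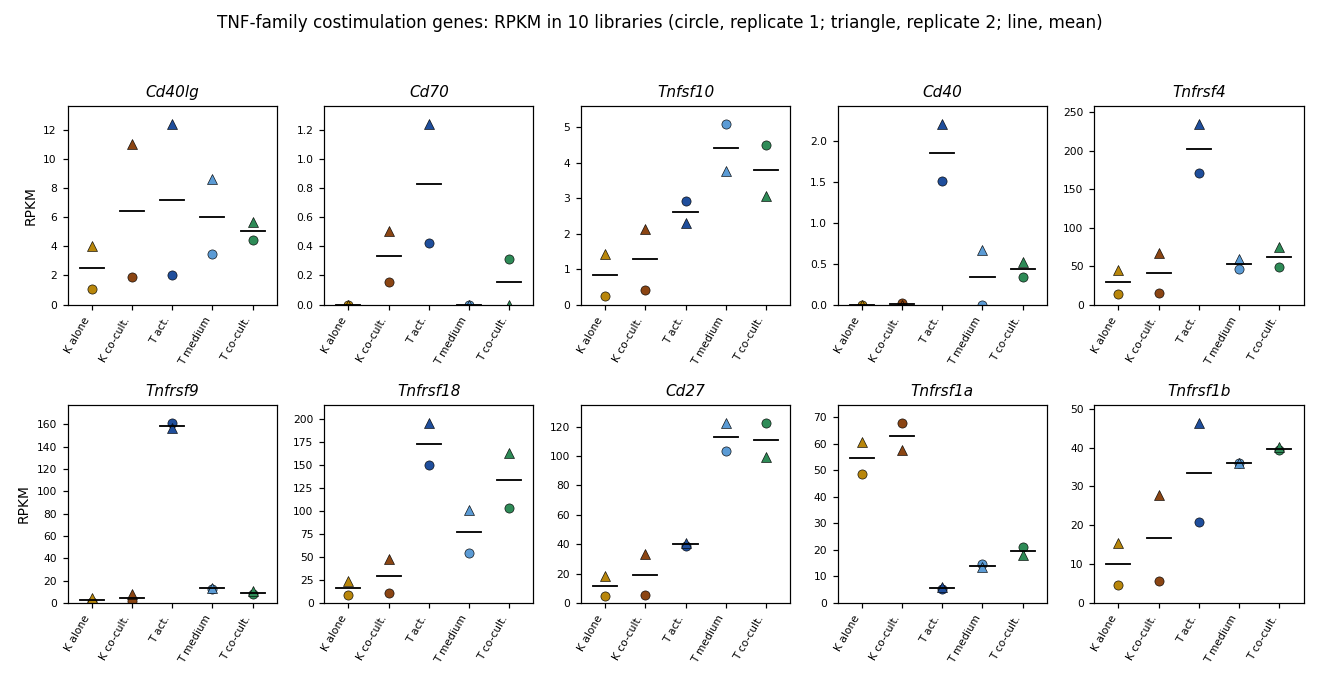
RPKM (y axis, linear from 0, own scale per gene) of the 10 members in keratinocytes alone (K alone), co-cultured keratinocytes (K co-cult.), activated T cells (T act.), T cells in medium (T medium), and co-cultured T cells (T co-cult.). Each point is 1 library and each line the mean of 2. Tnfrsf9 and Tnfrsf4 were highest in activated T cells, Cd27 in both later T-cell groups, and Tnfrsf1a in keratinocytes, whereas Cd40lg overlapped between most groups.

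The comparison of T cells in medium with activated T cells asked which of these genes changed within the day after activation in the absence of keratinocytes. Tnfrsf9 and Tnfrsf4 fell, and Cd27 and Tnfrsf1a rose. Tnfrsf9 fell from 158.8 RPKM ± 3.61 to 13.2 RPKM ± 0.818 (SD, n = 2 each), a log2 fold change of -3.44 ± 0.361 (SE). Its p after Benjamini-Hochberg adjustment was 0.00991 with the quasi-likelihood test of edgeR, which gave all further values unless another tool is named. Tnfrsf4 fell from 202.7 RPKM ± 45.2 to 52.3 RPKM ± 9.02, a log2 fold change of -1.81 ± 0.402 (edgeR, adjusted p = 0.0392). Cd27 rose from 39.9 RPKM ± 1.68 to 112.9 RPKM ± 13.4, a log2 fold change of 1.65 ± 0.302 (edgeR, adjusted p = 0.0235). Tnfrsf1a rose from 5.81 RPKM ± 0.503 to 14.1 RPKM ± 0.87, a log2 fold change of 1.42 ± 0.34 (edgeR, adjusted p = 0.0482).

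RNA of the Cd3 genes moved in the same direction as Cd27 and Tnfrsf1a, from 119.7 and 235.6 RPKM in activated T cells to 347.9 and 354.0 RPKM in medium. Per 100 RPKM of the Cd3 genes, Cd27 was at 32.35 and 17.45 in activated T cells and 29.7 and 34.6 in medium, and Tnfrsf1a at 4.557 and 2.62 and at 4.23 and 3.81. On this scale both groups overlapped for both genes, and the part of T-cell RNA content in their rise was not tested.

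These 4 were called among the 9 members tested, which is to be read against 6.54% of all 11863 genes tested. In separate directions, 2 members were higher against 2.32% of all genes, and 2 were lower against 4.22%. Of the remaining members, Tnfsf10 had a log2 fold change of 0.90 ± 0.38 (edgeR, adjusted p = 0.188), Tnfrsf18 of -0.99 ± 0.449 (adjusted p = 0.217), and Cd40 of -2.25 ± 1.44 (adjusted p = 0.384). Tnfrsf1b and Cd40lg stayed closer to 0, at 0.23 ± 0.419 and -0.11 ± 0.86. The call of Tnfrsf1a was the least stable, since its adjusted p was 0.0577 to 0.219 whenever 1 T-cell library was left out. Without replicate 2 of T cells in medium no member passed, and Tnfrsf9 was then at an adjusted p of 0.0611. Without replicate 1 of T cells in medium, or without either activated library, 1 member (Tnfrsf9) passed. In a single fit of all 10 libraries 1 member passed as well, namely Tnfrsf1a.

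The comparison of co-cultured with activated T cells used the same activated libraries, and its values are therefore not independent of those above. Tnfrsf9 fell to 9.38 RPKM ± 2.28, a log2 fold change of -3.87 ± 0.369 (edgeR, adjusted p = 0.00322). Cd27 rose to 111.1 RPKM ± 16.3, a log2 fold change of 1.66 ± 0.302 (edgeR, adjusted p = 0.016). Tnfrsf1a rose to 19.7 RPKM ± 2.24, a log2 fold change of 1.95 ± 0.344 (edgeR, adjusted p = 0.0148). Per 100 RPKM of the Cd3 genes, co-cultured T cells were at 34.3 and 33.9 for Cd27 and at 5.95 and 6.16 for Tnfrsf1a, above both activated libraries. Tnfrsf4 was at 61.9 RPKM ± 18.9 with a log2 fold change of -1.50 ± 0.399, and missed the threshold (edgeR, adjusted p = 0.0508). It passed with DESeq2 (adjusted p = 0.0109) and with limma on log2(RPKM + 1) (adjusted p = 0.0142).

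Called were 3 of the 9 members tested, to be read against 10.3% of all genes. Higher were 2 members against 4.59% of all genes, and lower was 1 against 5.72%. Tnfrsf18 had a log2 fold change of -0.16 ± 0.445 in this comparison (edgeR, adjusted p = 0.853), whereas it was -0.99 in medium without keratinocytes. For Cd40lg, Tnfsf10, Cd40, and Tnfrsf1b the log2 fold changes were -0.35, 0.72, -1.90, and 0.42, and none of them passed. Without replicate 1 of activated T cells the call of Tnfrsf9 remained and those of Cd27 (adjusted p = 0.0982) and Tnfrsf1a (adjusted p = 0.0893) were lost. Without replicate 2 of co-cultured T cells Cd27 was at an adjusted p of 0.0527. Keratinocyte markers summed to 51.6 and 93.8 RPKM in co-cultured T cells and to 1.75 and 3.12 RPKM in T cells in medium. The part of keratinocyte RNA in the level of Tnfrsf1a in co-cultured T cells was not tested. On uniquely mapped reads the log2 fold changes of Tnfrsf9 were -3.29 in medium and -4.03 in co-culture, and those of Cd27 1.96 and 1.94.

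T cells in co-culture and in medium had the same age by their labels, and this comparison asked what the keratinocytes added. No member passed, at 0 of 9 tested with edgeR's quasi-likelihood test, 0 at an unadjusted p under 0.05, and 0 with DESeq2 or limma, while 0.261% of all genes were called. Tnfrsf18 had the largest log2 fold change of the members, 0.83 ± 0.448 with a 95% interval of -0.20 to 1.86. That of Tnfrsf1a was 0.53 ± 0.332 (-0.24 to 1.29), and that of Tnfrsf9 -0.42 ± 0.332 (-1.19 to 0.34). For Cd27 it was 0.01 ± 0.294, with an interval of -0.67 to 0.69. All 9 intervals included 0, which does not show that the groups were alike.

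**Figure D2:**
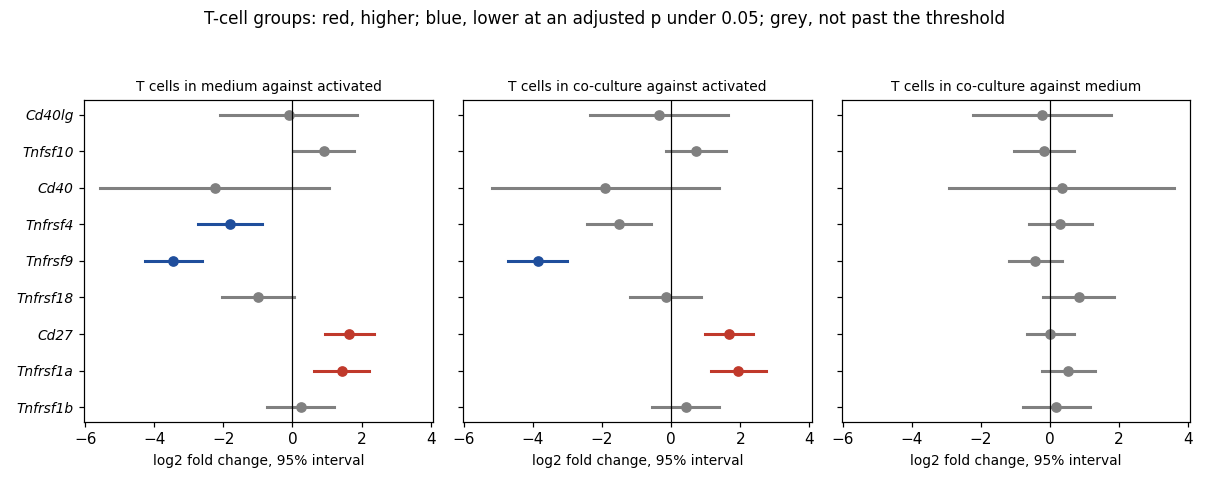
Log2 fold changes (x axis) of the 9 members that passed the filter (y axis) in the 3 comparisons of T-cell groups, with 95% intervals from edgeR as bars. Red and blue mark members that were higher or lower at an adjusted p under 0.05. Tnfrsf9 and Tnfrsf4 lie below 0 and Cd27 and Tnfrsf1a above 0 in both comparisons with activated T cells, and in the third comparison every interval includes 0.

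In keratinocytes, the comparison of co-culture with keratinocytes alone asked which members respond to the presence of T cells. With edgeR's quasi-likelihood test 0 of the 8 members tested were called, 0 had an unadjusted p under 0.05, and DESeq2 and limma called 0, while 0.0% of all 12515 genes were called by edgeR and 177 genes by DESeq2. Adjusted p of the members were 0.693 to 0.827 in edgeR. Cd40 and Cd70 did not pass the filter. All 8 log2 fold changes were positive, from 0.27 ± 0.302 (Tnfrsf1a) to 1.46 ± 1.117 (Cd40lg), with a median of 0.83 where that of all genes was 0.02. Their 95% intervals all included 0 and spanned for example -1.95 to 3.62 for Cd27. Without replicate 2 of the co-cultured keratinocytes, in which T-cell RNA was highest, 7 of these 8 values were negative, from -0.43 (Cd40lg) to -1.08 (Cd27). Without replicate 1 of the co-cultured keratinocytes or replicate 2 of keratinocytes alone all 8 were positive, at 2.24 and 2.775 for Cd40lg, and without replicate 1 of keratinocytes alone 6 of 8 were. Within libraries of the same number the fold of RPKM was above 1 in both for 7 members, for example 1.80 and 2.76 for Cd40lg, and for Tnfrsf1a it was 1.40 and 0.95. The share of all genes with such folds was not computed, and the count of members has no background. In bulk RNA, fewer cells of a type and less RNA per cell cannot be told apart.

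Of the 8 members tested in keratinocytes, 7 varied among the keratinocyte libraries together with T-cell RNA, the exception being Tnfrsf1a. Cd40 and Cd70, with 1 and 9 reads in these libraries, are not considered here. T-cell RNA of the keratinocyte libraries held little Cd8 RNA. Cd8a and Cd8b1 averaged 0.112 to 1.58 RPKM there, beside 22.4 to 150.1 RPKM of the Cd3 genes. In T cells they averaged 125.6 to 548.1 RPKM, beside 119.7 to 357.6 RPKM of the Cd3 genes. Ratios to the Cd3 genes in keratinocyte and T-cell libraries thus refer to RNA of different Cd8 content. The source of T-cell RNA in keratinocyte libraries was not tested. Per 100 RPKM of the Cd3 genes, Tnfrsf9 was at 5.53 and 5.08 in keratinocytes alone and 5.71 and 5.51 in co-cultured keratinocytes, although its RPKM differed 6.67 fold between the lowest and the highest of these libraries. For Cd27, values per 100 RPKM of the Cd3 genes were 20.2 to 22.4 (RPKM differed 7.19 fold), and for Tnfrsf1b 18.5 to 20.5 (6.04 fold). Tnfrsf18 (28.9 to 38.1) and Tnfrsf4 (44.9 to 62.1) varied somewhat more. Tnfrsf1a behaved in the opposite way, since its RPKM differed by 1.40 fold only and its level per 100 RPKM of the Cd3 genes by 6.41 fold. In the keratinocyte libraries, 20.0 to 37.5% of the exon reads of Tnfrsf9 and 14.7 to 28.1% of those of Cd27 mapped uniquely. Ratios of both genes were not computed on uniquely mapped reads.

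In T cells the ratios of Tnfrsf9, Tnfrsf4, and Tnfrsf18 set activated T cells apart from the later groups. Tnfrsf9 per 100 RPKM of the Cd3 genes was 134.8 and 66.3 in activated T cells, 3.61 and 3.88 in T cells in medium, and 2.17 and 3.74 in co-cultured T cells, and the later groups overlapped. Tnfrsf4 was at 142.6 and 99.6 in activated T cells and 13.2 to 25.6 in the later T cells, and keratinocyte libraries were between them. Tnfrsf18 was at 125.1 and 83.3 in activated T cells and 15.7 to 55.5 in the later T cells. For Cd27, Tnfrsf1a, and Tnfsf10 the ratios of activated T cells overlapped with those of T cells in medium. Tnfrsf1b was at 17.3 and 19.7 in activated T cells and 10.2 to 13.6 in the later T cells, although its RPKM in the activated libraries spanned those of the later T cells. Cd40lg was at 4.70 and 4.79 in keratinocytes alone and 6.88 and 7.33 in co-cultured keratinocytes, above all T-cell libraries except the activated replicate 2 (5.26), which lay between both keratinocyte groups. Per 100 RPKM of Cd4, a measure chosen after the data had been seen, Cd40lg was at 9.22 and 9.18 in keratinocytes alone, 12.7 and 13.03 in co-cultured keratinocytes, and 5.16 to 12.2 in T cells. These ratios are descriptions of 10 libraries, and the part of T-cell RNA in the levels of keratinocyte libraries was not tested.

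**Figure D3:**
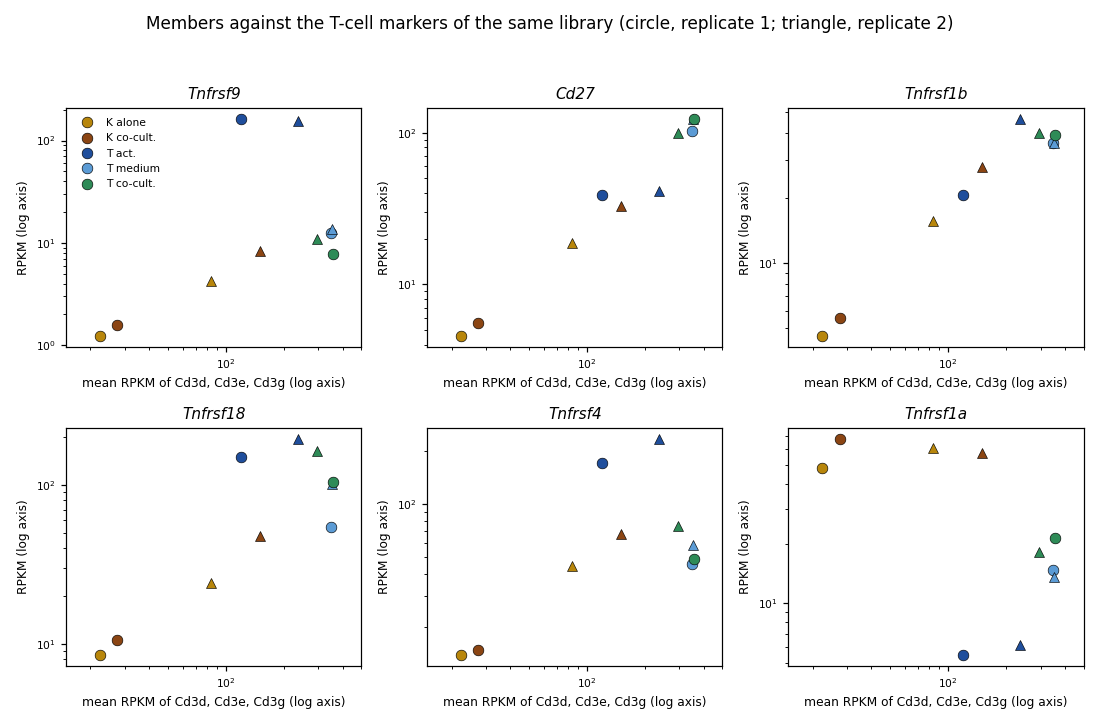
RPKM of 6 receptors (y axis, logarithmic) against the mean RPKM of Cd3d, Cd3e, and Cd3g in the same library (x axis, logarithmic), with 1 point for each of the 10 libraries and groups abbreviated as K (keratinocytes) and T (T cells). In the 4 keratinocyte libraries all receptors but Tnfrsf1a rise with the Cd3 genes, and Tnfrsf9, Tnfrsf4, and Tnfrsf18 of activated T cells lie above this line.

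A difference in the co-culture effect between keratinocytes and T cells was tested as an interaction in 8 libraries. No member passed, at 0 of 9 tested with edgeR, 0 at an unadjusted p under 0.05, and 0 with DESeq2 or limma, against 0.576% of all genes. Standard errors of the members were 0.373 (Tnfrsf1a) to 2.79 (Cd40) on the log2 scale, so that only very large differences could have been seen for most of them. The difference was most precise for Tnfrsf1a, at -0.27 with a 95% interval of -1.15 to 0.60.

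Between all T-cell and all keratinocyte libraries, where cell type and culture differed together, 6 of the 9 members tested were called, against 49.3% of all 13394 genes. Higher in T cells were 5 members against 18.7% of all genes, and lower was 1 against 30.6%. Tnfrsf9 had a log2 fold change of 2.84 ± 0.559 (edgeR, adjusted p = 0.00306), Tnfrsf18 of 2.46 ± 0.553 (adjusted p = 0.00597), Cd27 of 2.35 ± 0.576 (adjusted p = 0.00883), and Tnfsf10 of 1.70 ± 0.593 (adjusted p = 0.0398). Cd40 was also called (edgeR, adjusted p = 0.0097), with 266 reads in 6 T-cell libraries and 1 read in 4 keratinocyte libraries, and no fold is given for it. Tnfrsf1a was lower in T cells, at 13.2 RPKM on average against 58.7 RPKM in keratinocytes, a log2 fold change of -2.34 ± 0.176 (edgeR, adjusted p = 1.69e-05). Tnfrsf1b (1.45 ± 0.544, adjusted p = 0.0524), Tnfrsf4 (1.30 ± 0.514, adjusted p = 0.0632), and Cd40lg (0.56 ± 0.734, adjusted p = 0.551) were not called. With 1 library left out, 4 to 8 members were called, and the call of Tnfsf10 was lost when any 1 of 8 of the 10 libraries was left out (adjusted p of 0.0589 to 0.1), and that of Cd40 without replicate 2 of T cells in medium. As keratinocyte libraries held T-cell RNA, these contrasts are between libraries and not between pure cell types.

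The binding partners of the members were followed in lists of other TNF ligands, other TNF receptors, adaptors, and NF-κB factors. Tnf, the main ligand of both TNF receptors, was at 8.004 and 1.25 RPKM in the libraries of keratinocytes alone, 27.2 and 3.77 RPKM in co-cultured keratinocytes, 5.26 and 3.43 RPKM in activated T cells, 0.237 and 1.31 RPKM in T cells in medium, and 0.20 and 1.47 RPKM in co-cultured T cells. In contrast to most members, its higher keratinocyte library was replicate 1, which had less T-cell RNA, in both groups. Lta, a second ligand of both TNF receptors, fell from 70.4 RPKM ± 37.0 in activated T cells to 6.18 RPKM ± 0.737 in medium (edgeR, adjusted p = 0.0138) and 7.76 RPKM ± 0.571 in co-culture (adjusted p = 0.00941). Its receptor Tnfrsf1a was higher in both of these comparisons.

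The ligands of OX40, CD137, and GITR were low in all cultures. Tnfsf4 was at 0.872 to 3.45 RPKM in T cells and 0 to 0.107 RPKM in keratinocyte libraries, Tnfsf9 at 0.16 to 3.84 RPKM in all libraries, and Tnfsf18 was listed at 0 in all 10. Tnfrsf10b, the receptor of TRAIL, was at 3.64 to 11.7 RPKM in keratinocyte libraries and 4.41 RPKM ± 0.617 in activated T cells. It fell to 0.399 RPKM ± 0.312 in co-cultured T cells (edgeR, adjusted p = 0.037), and was at 0.564 RPKM ± 0.411 in T cells in medium (adjusted p = 0.0659). Of the adaptors, Traf1 was at 16.6 to 29.6 RPKM in T cells and did not pass in any comparison among them, with adjusted p of 0.906 in medium and 0.993 in co-culture against activated T cells. Traf2, Traf3, and Traf5 did not pass among T cells either. Traf3 was at 3.76 RPKM ± 1.29 in activated and 1.22 RPKM ± 0.294 in co-cultured T cells, a log2 fold change of -1.43 ± 0.494 (edgeR, adjusted p = 0.104).

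**Figure D4:**
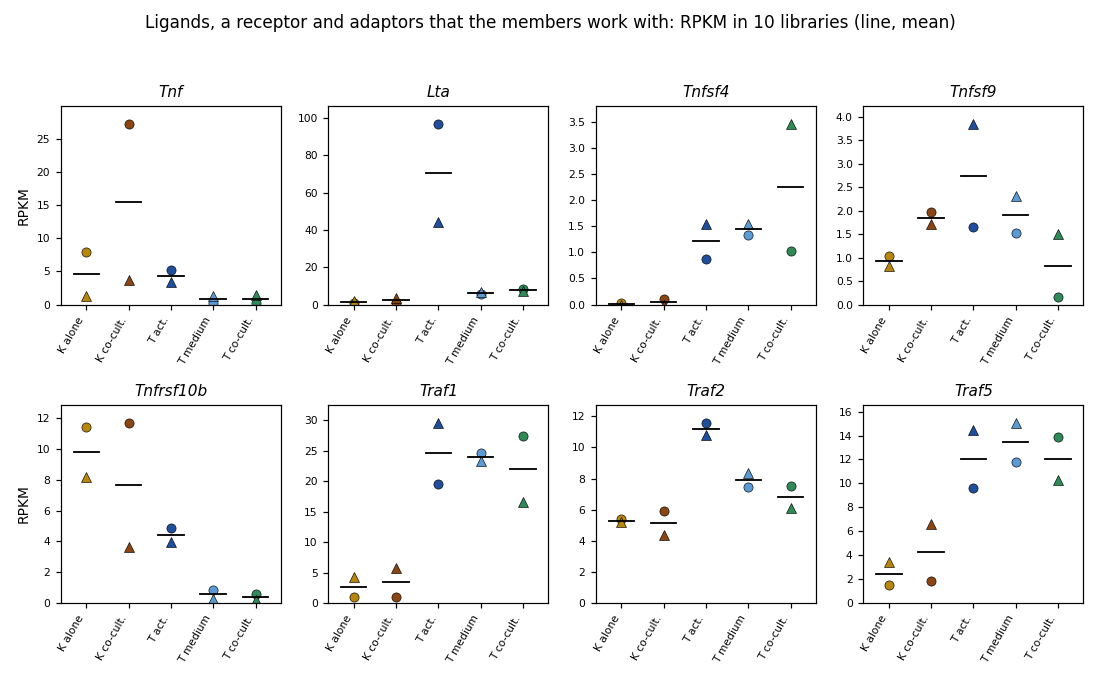
RPKM (y axis, linear from 0, own scale per gene) of ligands (Tnf, Lta, Tnfsf4, Tnfsf9), the TRAIL receptor Tnfrsf10b, and the adaptors Traf1, Traf2, and Traf5 in the 5 groups, with keratinocytes as K and T cells as T. Each point is 1 library and each line the mean of 2. Lta was at 44.2 and 96.5 RPKM in activated T cells and at 0.838 to 8.17 RPKM in all other libraries.

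Of the other TNF ligands tested, 0 were higher and 1 of 9 (Lta) was lower in T cells in medium, and the same gene alone was called in co-culture. Of 16 other receptors, Tnfrsf21 was lower in medium, whereas in co-culture Tnfrsf10b was lower and Fas, the receptor of Fas ligand, was higher (19.6 RPKM ± 2.56 against 8.06 RPKM ± 1.96, adjusted p = 0.0473 in edgeR). Of 22 adaptors, 1 was lower in medium (Traf4, from 39.5 RPKM ± 12.5 to 7.79 RPKM ± 3.89, adjusted p = 0.0427) and 0 were called in co-culture. Of 13 NF-κB factors and feedback genes, Bcl2l1 and Nfkbib were lower in both later groups, and Nfkb2 in co-culture only. Bcl2l1, which encodes the survival factor Bcl-xL, fell from 28.2 RPKM ± 4.41 to 8.0 RPKM ± 0.394 in medium (edgeR, adjusted p = 0.0239). The medians of the log2 fold changes in medium were -0.41 for ligands, -0.13 for receptors, -0.03 for adaptors, and -0.43 for NF-κB factors, against -0.02 for all genes. In the comparison of keratinocyte groups, in that of co-cultured T cells with T cells in medium, and in the interaction, edgeR called 0 genes of these lists. Between T-cell and keratinocyte libraries, 4 ligands were higher in T cells and 2 lower of 12 tested, 6 receptors higher and 8 lower of 19, 9 adaptors higher and 2 lower of 22, and 5 NF-κB factors higher and 3 lower of 13. These counts are to be read against 18.7% of all genes higher and 30.6% lower. Against activated T cells, 2.32% of all genes were higher and 4.22% lower in medium, and 4.59% higher and 5.72% lower in co-culture.

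The genes with the pattern most like that of a member over the 10 libraries were found by the root mean square difference of centred log2(RPKM + 1) among 8744 genes. For Tnfrsf9 these were Irf4, Il2ra, and Utf1, with differences of 0.439 to 0.469 where the spread of Tnfrsf9 itself was 2.01. For Tnfrsf4 they were Nfkbid, Cd83, and Osm (0.319 to 0.389, own spread 1.196), and for Tnfrsf18 Lag3, Slc2a3, and Bcl2a1b (0.32 to 0.37, own spread 1.499). Cd27 was most like Gimap1, Cd3d, and Gimap4 (0.223 to 0.254, own spread 1.58), and Tnfrsf1b most like Tigit, Cxcr5, and Trpv2 (0.158 to 0.197, own spread 1.06). For Tnfrsf1a they were Mfge8, Acad11, and Gpsm2 (0.239 to 0.296, own spread 1.21). For Cd40lg they were Gm10093, Car2, and Tnfrsf25, with differences of 0.317 to 0.333 where its own spread was 0.858. Tnfsf10 was most like Plekho2, Ctsc, and Ccdc69 (0.159 to 0.203, own spread 0.735). Libraries of 1 group share their culture, and these likenesses are descriptions only.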

How the data were processed

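Poly(A) RNA-Seq libraries were prepared with the NEBNext Ultra II kit and aligned to GRCm38 by the authors, who left the settings of CLC Genomics Workbench at their defaults. Annotation release and strand setting are not given in the sources used here. Per gene, the authors deposited counts of exon reads without normalization, counts of uniquely mapped exon reads, and RPKM, which they scaled to exon length and mapped reads. RPKM were used for levels and counts for tests. From the counts, log2 fold changes were computed over all genes in R 4.3.3 by the quasi-likelihood test of edgeR 4.0.16, after filterByExpr and TMM, with Benjamini-Hochberg adjustment and a threshold of 0.05. Keratinocyte libraries (4) and T-cell libraries (6) were fitted apart, the interaction in 8 libraries, and the contrast of cell types in 10. Standard errors are the size of a log2 fold change divided by the square root of F. Scripts were tested on simulated data. As alternatives, DESeq2 1.42.0 was run, as well as limma 3.58.1 on RPKM with pseudocounts of 1 and 0.1 before taking log2. Normalization by library size, tables without a filter or with 10 reads in every library, a block for the replicate number, counts of uniquely mapped reads, fits of other libraries, and omission of each library were tried with edgeR. Named are all members and partners of members. For the comparisons of later with activated T cells, up to 3 called genes per list with the largest change at 5 RPKM or more are named. Further called genes are named there where a list had 5 or fewer (chosen after their values were seen). Called genes of the lists are not named for the contrast of cell types. Genes most like a member were sought for members with a mean of 1 RPKM or more in a group, among genes with 5 RPKM or more in a group. Those of Cd40 are not reported here. The members and lists were chosen with earlier results of these data known. Groups came from the labels. Tables and plots were made in Python 3.11.15 (pandas 2.3.3, numpy 2.4.6, matplotlib 3.10.9).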

Additional observations from a re-analysis of the deposited data

How the results depend on the processing

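The number of members called was 0 under all alternatives for keratinocyte groups, for co-cultured T cells against medium, and for the interaction. For T cells in medium it was 4 as reported, 1 in a single fit of all 10 libraries, and 0 to 3 with a library left out; for co-cultured against activated T cells it was 3, and 1 to 3 with a library left out. Of 206 alternative values of the 13 called results, 0 reversed and 173 kept their call; of all 801 alternative member values, 48 reversed, 38 of them with a library left out, and the cause was not tested. Library size in place of TMM moved the median of all genes by -0.11 (medium) and -0.16 (co-culture against activated). In medium, 3 members were called with library size, and the call of Tnfrsf1a was lost (edgeR, adjusted p = 0.0636). With 2 libraries per group and low reads of Cd40, Cd70, and Cd40lg, small differences were not detectable. The numbers shared by keratinocyte libraries correlated at 0.558 over 12515 genes, with too few pairs to call them paired, and the replicate block called 0 members. The number of all genes called changed by more than 1.5 times as follows. In keratinocytes it was 0 as reported, 177 (DESeq2), 11 (no filter), 2 (replicate block), 4 (all 10 libraries), and 0 to 1164 with a library left out, namely 1164 without replicate 1 and 21 without replicate 2 of the co-culture. In medium it went from 776 to 1866 (DESeq2) and 1945 (no filter), and to 24 to 1067 with a library left out, with 24 without replicate 2 and 57 without replicate 1 of T cells in medium and 62 without replicate 1 of activated T cells. In co-culture against activated T cells it went from 1222 to 2245 (DESeq2) and 2425 (no filter), and to 266 (without replicate 1 of activated T cells) and 498 (without replicate 2 of co-cultured T cells). For co-cultured T cells against medium it went from 31 to 87 (DESeq2), 99 and 107 (limma), 141 (no filter), 0 (10 reads in every library), 83 (all 10 libraries), and 16 to 52 with a library left out. For the interaction it went from 76 to 352 (DESeq2), 205 (no filter), 0 (10 reads in every library), and 21 to 105 with a library left out, and between cell types from 6601 to 4343 (10 reads in every library).

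Reversed values of members not called were, for Cd40lg in medium, 0.039 and 0.11 with limma at pseudocounts of 1 and 0.1. For Cd27 in co-culture against medium they were -0.025 and -0.026 with limma, -0.036 with library size, and -0.015 with uniquely mapped reads. For the interaction they were -0.13 and -0.78 (Cd40) and -0.18 and -0.16 (Tnfrsf18) with limma.

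With a library left out, log2 fold changes in keratinocytes ranged from -0.43 to 2.78 (Cd40lg), -1.04 to 2.51 (Tnfsf10), -0.99 to 1.73 (Tnfrsf4), -0.82 to 2.15 (Tnfrsf9), -0.65 to 1.94 (Tnfrsf18), -1.08 to 2.24 (Cd27), and -0.88 to 2.02 (Tnfrsf1b). In medium they ranged from -1.01 to 1.80 (Cd40lg) and -0.24 to 1.00 (Tnfrsf1b), and in co-culture against activated T cells from -1.125 to 1.56 (Cd40lg), -0.65 to 0.20 (Tnfrsf18), and -0.064 to 1.19 (Tnfrsf1b). In co-culture against medium they were -0.81 to 0.67 (Cd40lg), -0.67 to 7.55 (Cd40), -0.17 to 0.66 (Tnfrsf4), and -0.19 to 0.21 (Cd27). In the interaction they were -0.24 to 3.01 (Cd40lg), -0.91 to 2.69 (Tnfsf10), -5.28 to 2.97 (Cd40), -1.33 to 1.42 (Tnfrsf4), -0.44 to 2.58 (Tnfrsf9), -1.52 to 1.12 (Tnfrsf18), -1.14 to 2.23 (Cd27), and -1.11 to 1.84 (Tnfrsf1b). Between cell types Cd40lg ranged from -0.048 to 1.52.

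Levels per 100 RPKM of T-cell markers in keratinocyte libraries moved when Cd8a and Cd8b1, which were near 0 there, replaced the Cd3 genes. They were then 616.1 (Cd40lg), 13.87 (Cd70), 153.7 (Tnfsf10), 0.759 (Cd40), 6244 (Tnfrsf4), 610.4 (Tnfrsf9), 3864 (Tnfrsf18), 2391 (Cd27), 16340 (Tnfrsf1a), and 2202 (Tnfrsf1b). Per 100 RPKM of Cd4, Cd40lg was at 11.02 in keratinocyte and 9.46 in T-cell libraries.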
